A study of Mus musculus with 12 samples.

Results

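The CXC chemokines are small secreted proteins that steer leukocytes through receptors of the CXCR family, and 10 of their genes were followed here in bone marrow-derived macrophages (BMDMs) with and without the inducible NO synthase NOS2. The genes were Cxcl1, Cxcl2, Cxcl3, Cxcl5, Ppbp, Cxcl9, Cxcl10, Cxcl11, Pf4 and Cxcl16. They were taken by name as the members for which the array annotation gives at least 1 probe set of a single gene, which held for all 10, out of 18193 genes measured in this way. The 10 genes have 15 such probe sets of 34945. Of the 10, 6 have 1 probe set and 4 have more than 1, in which case the brightest on average across the arrays stands for the gene and the others are given beside it.

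BMDMs were grown from the marrow of Nos2-/- mice (B6.129P2-Nos2tm1Lau/J) and WT mice (C57BL/6) of 6 to 10 weeks in medium with 20 ng/mL of M-CSF, which all 4 groups share. Stimulated cells of both genotypes received 100 ng/mL of LPS, the bacterial ligand of TLR4, and IFNγ at 50 ng/mL, and were taken after 8 h. The other cells, which received vehicle (PBS) by the methods and are named untreated in the sample titles, are called untreated. Each of the 4 groups, stimulated Nos2-/-, stimulated WT, untreated Nos2-/- and untreated WT, has 3 arrays labelled as biological replicates, 12 in all. The labels do not say whether replicates came from separate mice, so the p-values measure the spread between these cultures. The Nos2-/- allele is a germline deletion bred onto C57BL/6 from another strain. Cxcl16 lies on chromosome 11 at a distance of 8460803 bp from Nos2, so a genotype difference in it and DNA carried along with the allele cannot be told apart.

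Members of the family fall into classes by the cells they call. Cxcl1, Cxcl2, Cxcl3, Cxcl5 and Ppbp carry the amino acids Glu-Leu-Arg ahead of their first cysteine, bind CXCR2 and attract neutrophils, and they are called neutrophil-directed here. Cxcl9, Cxcl10 and Cxcl11 lack that motif, are induced by IFNγ and attract activated T cells and NK cells through CXCR3, and they are called IFNγ-induced. Pf4, platelet factor 4, is a product of megakaryocytes and platelets that resting macrophages also transcribe. Cxcl16 is made as a membrane protein, serves as a scavenger receptor and is the ligand of CXCR6. In mice macrophages are a main source of Cxcl1 and Cxcl2 after LPS, through NF-kB.

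Of the 10 genes, 9 lie on chromosome 5 in 2 groups (GRCm38.p6). Cxcl5, Ppbp, Pf4, Cxcl3, Cxcl1 and Cxcl2 follow each other in a span of 146.6 kb (chr5:90759298-90905938). Cxcl9, Cxcl10 and Cxcl11 share a span of 42.0 kb (chr5:92321331-92363296). Cxcl16 stands alone (chr11:70454389-70459984). The annotation, which is of the strain C57BL/6J, calls Cxcl11 a transcribed pseudogene, in which a frameshift of that strain is known to prevent the protein, so its signal is read only as transcript.

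RefSeq promoter sequences (GRCm38.p6) were matched by symbol for 7 of the 10 genes. Those of Cxcl1, Cxcl2 and Cxcl3 are shown because these 3 neighbours rose together on stimulation, and that of Ppbp because it lies in the same group of genes and fell. Each is the 120 bases ahead of the start site on the plus strand, 5′ to 3′. Capitals mark GGGAATTTCCC, which is the longest run of bases that the windows of Cxcl1, Cxcl2 and Cxcl3 have in common and has the form of an NF-kB site, and TATAAA, the letters of the TATA box. Both were searched on both strands.
Cxcl1 (chr5:90891125-90891244): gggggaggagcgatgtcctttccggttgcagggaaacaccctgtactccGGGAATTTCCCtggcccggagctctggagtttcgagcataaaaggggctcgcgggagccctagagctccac
Cxcl2 (chr5:90903779-90903898): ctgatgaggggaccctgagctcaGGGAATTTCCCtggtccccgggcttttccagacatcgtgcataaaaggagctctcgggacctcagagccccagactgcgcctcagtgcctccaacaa
Cxcl3 (chr5:90785981-90786100): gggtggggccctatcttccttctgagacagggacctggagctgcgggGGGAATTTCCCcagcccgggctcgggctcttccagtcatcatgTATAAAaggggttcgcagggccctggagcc
Ppbp (chr5:90768398-90768517): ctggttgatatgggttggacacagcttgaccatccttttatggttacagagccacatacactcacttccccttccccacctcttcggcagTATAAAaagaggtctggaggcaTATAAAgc

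The shared run of 11 bases begins 71 bases ahead of the start in Cxcl1, 97 bases ahead in Cxcl2 and 73 bases ahead in Cxcl3. It was taken from these sequences, so its presence in all 3 is no finding. Of 32841 promoter windows of 250 bases, 14 hold it, or 0.0426%, whereas TATAAA is in 12.4%. Of the 11 other genes that hold the run, 6 were measured. After stimulation in WT 1 of these 6 was higher and 2 were lower, where 29.6% of all genes were higher and 28.4% lower.

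The promoters of Cxcl9 and Cxcl10 are shown over 250 bases as those of IFNγ-induced members. They are read on the minus strand of GRCm38.p6, 5′ to 3′. Capitals mark the NF-kB consensus and GAAANNGAA, the core of the interferon-stimulated response element, each searched on both strands.
Cxcl9 (chr5:92328080-92328329): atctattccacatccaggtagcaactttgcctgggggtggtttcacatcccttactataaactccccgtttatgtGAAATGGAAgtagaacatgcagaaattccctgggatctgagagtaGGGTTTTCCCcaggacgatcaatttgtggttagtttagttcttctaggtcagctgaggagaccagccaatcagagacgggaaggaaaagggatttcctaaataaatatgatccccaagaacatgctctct
Cxcl10 (chr5:92348890-92349139): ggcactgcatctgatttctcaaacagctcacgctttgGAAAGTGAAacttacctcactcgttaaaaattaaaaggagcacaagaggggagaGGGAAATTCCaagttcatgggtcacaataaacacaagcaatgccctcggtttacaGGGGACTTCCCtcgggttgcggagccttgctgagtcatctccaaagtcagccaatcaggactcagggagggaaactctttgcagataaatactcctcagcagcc

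Cxcl10 holds GAAAGTGAA, which begins 213 bases ahead of its start, and the NF-kB consensus in 2 places, beginning 159 and 104 bases ahead, the nearer of which holds overlapping matches. Cxcl9 holds GAAATGGAA 175 bases ahead of its start and the NF-kB consensus 130 bases ahead. GAAANNGAA is in 7.13% of all promoter windows and the NF-kB consensus, which overlaps the shared run above, in 23.2%. A match describes letters and not a measured site.

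Values are log2 signals made by the authors with RMA, a method that corrects background, gives all arrays the same distribution and summarises the probes of a probe set. Array medians ran from 5.14 to 5.21 and array maxima from 14.65 to 14.73, and arrays of a group correlated at 0.996 or above across probe sets. Groups were compared with limma in 1 model of all 12 arrays. Calls were made where p, adjusted by Benjamini-Hochberg over all 18193 genes, was under 0.05, and intervals are 95% confidence intervals. Nos2 itself, which has 1 probe set, had signals of 7.45 to 7.88 in stimulated Nos2-/- and 9.64 to 9.81 in stimulated WT, against 5.15 to 5.41 in untreated Nos2-/- and 5.40 to 5.65 in untreated WT. Whether the probes lie in the deleted part is not given in the sources used here, so it does not check the genotypes. Of 7 macrophage markers, 0 were dimmer in every group than the median of the single-gene probe sets. The 6 measured markers of megakaryocytes and platelets summed to 336 to 376 on the linear scale in stimulated Nos2-/-, 344 to 396 in stimulated WT, 340 to 365 in untreated Nos2-/- and 346 to 352 in untreated WT.

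**Figure D1:**
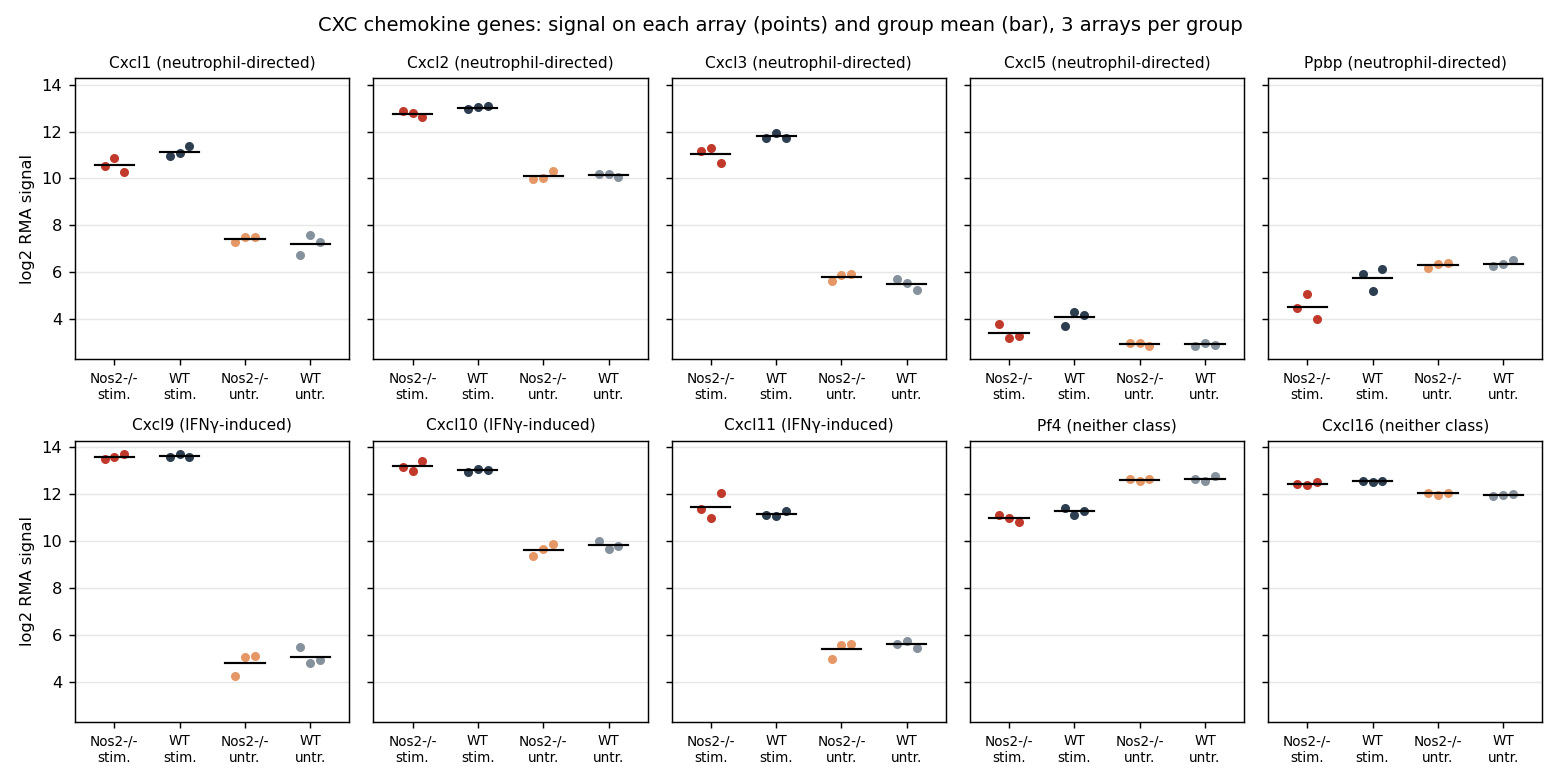
Log2 RMA signal of each of the 10 CXC chemokine genes (y axis) on each of 12 arrays (points) in the 4 groups (x axis), with the group mean as a bar. The stimulated arrays lie apart from the untreated ones in every panel, lower for Ppbp and Pf4 and higher for the other 8 genes.

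Stimulation raised 8 of the 10 genes and lowered the other 2, Ppbp and Pf4, in both genotypes. In Nos2-/- 8 rose and 2 fell, where 26.3% of all genes rose and 28.2% fell. In WT 8 rose and 2 fell, where 29.6% of all genes rose and 28.4% fell. The median log2 fold change of the 10 was 2.90 in Nos2-/- and 3.05 in WT, against 0.05 and 0.07 over all genes. The groups did not overlap for any of the 10 genes in either genotype, as for 60.5% of all genes in Nos2-/- and 65.1% in WT.

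**Figure D2:**
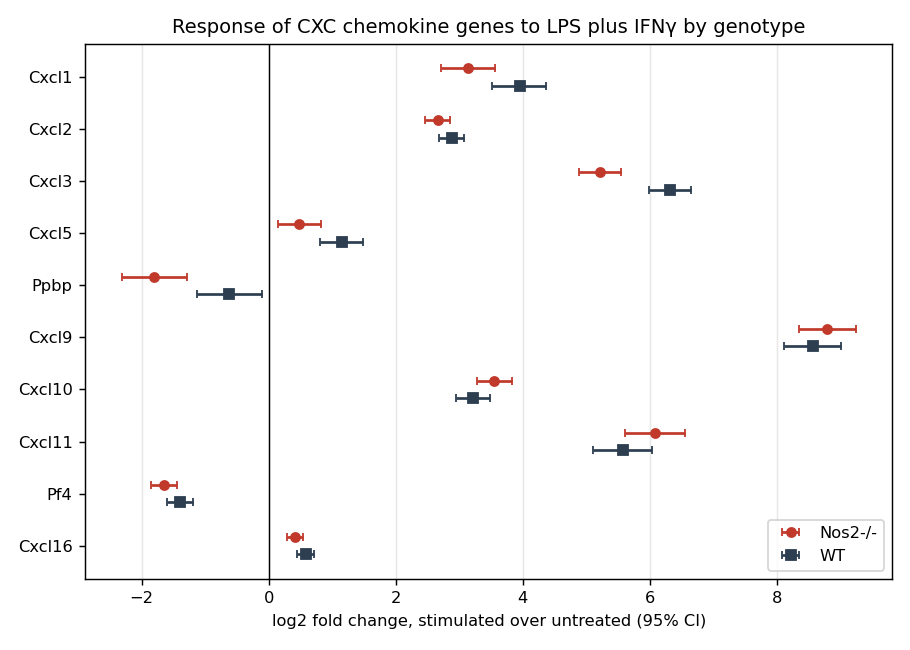
Log2 fold change of stimulated over untreated BMDMs (x axis) for each gene, in Nos2-/- (red circles) and WT (dark squares), with 95% confidence intervals from limma on 3 arrays per group. Cxcl9 rose most and Pf4 and Ppbp fell, and the Nos2-/- value lies left of the WT value for the 5 neutrophil-directed genes and right of it for the 3 IFNγ-induced genes.

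Cxcl9 had the largest rise of the 10. Its signal was 13.50, 13.60 and 13.72 in stimulated Nos2-/- and 4.25, 5.07 and 5.12 in untreated Nos2-/-, and 13.59, 13.71 and 13.59 in stimulated WT and 5.50, 4.79 and 4.91 in untreated WT. The stimulated arrays of both genotypes lay within a narrow band near 13.6, about 1 log2 unit below the array maxima. The log2 fold change was 8.79 in Nos2-/- (95% CI 8.34 to 9.24) and 8.56 in WT (95% CI 8.11 to 9.01). The dimmer probe set of Cxcl9 gave 5.82 in Nos2-/- and 5.80 in WT, so the size of the rise depended on the probe set.

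Cxcl11 rose by 6.08 on the log2 scale in Nos2-/- (standard error 0.22) and by 5.57 in WT (standard error 0.22). Its signal was 11.35, 10.98 and 12.06 in stimulated Nos2-/- and 4.99, 5.55 and 5.62 in untreated Nos2-/-, against 11.11, 11.09 and 11.30 in stimulated WT and 5.62, 5.73 and 5.44 in untreated WT. The stimulated Nos2-/- arrays were spread more widely than the WT arrays, with replicate 3 above all others. A dimmer probe set gave 2.20 in Nos2-/- and 2.06 in WT.

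Cxcl10 was already bright in untreated cells, with means of 9.64 in Nos2-/- and 9.82 in WT. Stimulated Nos2-/- arrays read 13.17, 13.00 and 13.40 and stimulated WT arrays 12.95, 13.08 and 13.04. The log2 fold change was 3.55 in Nos2-/- and 3.21 in WT, the smallest rise of the 3 IFNγ-induced genes by their brightest probe sets, though larger than that of the dimmer Cxcl11 probe set.

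Of the neutrophil-directed genes, Cxcl3 rose most. Its signal was 11.15, 11.28 and 10.67 in stimulated Nos2-/- and 5.64, 5.87 and 5.93 in untreated Nos2-/-, against 11.74, 11.95 and 11.74 in stimulated WT and 5.72, 5.53 and 5.23 in untreated WT. All 3 stimulated Nos2-/- arrays lay below all 3 stimulated WT arrays, whereas the untreated arrays of the genotypes overlapped. The log2 fold change was 5.22 in Nos2-/- (a 37.3-fold rise) and 6.31 in WT (a 79.4-fold rise).

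Cxcl1, which encodes the chemokine KC, rose by 3.13 in Nos2-/- (95% CI 2.71 to 3.56) and by 3.95 in WT (95% CI 3.52 to 4.37). Stimulated Nos2-/- arrays read 10.54, 10.88 and 10.26 and stimulated WT arrays 10.94, 11.10 and 11.39, so the genotypes did not overlap. Cxcl2, which encodes MIP-2, rose by 2.66 in Nos2-/- and 2.88 in WT, and was bright in untreated cells, with means of 10.10 in Nos2-/- and 10.14 in WT. Its stimulated signals were 12.87, 12.79 and 12.63 in Nos2-/- and 12.96, 13.04 and 13.07 in WT. Here too the 3 Nos2-/- arrays lay below the 3 WT arrays, by a small distance.

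Cxcl5, a neutrophil chemoattractant made mainly by epithelial cells, was dim throughout. Its signal was 3.80, 3.20 and 3.27 in stimulated Nos2-/- and 3.00, 2.99 and 2.84 in untreated Nos2-/-, against 3.71, 4.30 and 4.19 in stimulated WT and 2.86, 3.00 and 2.90 in untreated WT. Even the stimulated means lay below the array medians. It rose by 0.48 in Nos2-/- (adjusted p = 0.0188 from limma) and by 1.15 in WT (adjusted p = 2.1e-05). The rise in Nos2-/- was not called without stimulated Nos2-/- replicate 1, at a log2 fold change of 0.29 (adjusted p = 0.0923), or without untreated Nos2-/- replicate 3, at 0.43 (adjusted p = 0.0653), and its adjusted p ran from 0.0090 to 0.0923 over the alternatives.

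Pf4 and Ppbp, neighbours on chromosome 5 and both known as platelet products, fell. Pf4 was among the brighter signals of untreated cells, at 12.67, 12.55 and 12.64 in Nos2-/- and 12.65, 12.57 and 12.77 in WT. Stimulated arrays read 11.11, 11.0 and 10.81 in Nos2-/- and 11.42, 11.11 and 11.28 in WT. The log2 fold change was −1.65 in Nos2-/- and −1.39 in WT, each with a standard error of 0.09.

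Ppbp had signals of 4.46, 5.05 and 4.01 in stimulated Nos2-/- and 6.18, 6.33 and 6.39 in untreated Nos2-/-, against 5.91, 5.20 and 6.12 in stimulated WT and 6.25, 6.33 and 6.51 in untreated WT. It fell in Nos2-/- (log2 fold change −1.80, 95% CI −2.31 to −1.28). In WT the log2 fold change was −0.62 (95% CI −1.13 to −0.10, adjusted p = 0.0396 from limma). That WT fall was not called without stimulated WT replicate 2, at −0.34 (adjusted p = 0.1964), without untreated WT replicate 1, at −0.67 (adjusted p = 0.0554), without untreated WT replicate 2, at −0.63 (adjusted p = 0.0710), or without untreated WT replicate 3, at −0.54 (adjusted p = 0.1158). Over its 16 alternatives the adjusted p ran from 0.0138 to 0.1964 and 9 called it. Of the 6 measured markers of megakaryocytes and platelets, whose sums are given above, 2 were higher and 1, Treml1, was lower on stimulation in each genotype, Treml1 by log2 fold changes of −0.47 in Nos2-/- and −0.49 in WT. All 6 were dim, with group means under 7 on the log2 scale, and their part in the fall of Pf4 and Ppbp was not tested. In bulk RNA, fewer cells of a type and less RNA per cell cannot be told apart.

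Cxcl16 was bright in every group and moved least. Its signal was 12.44, 12.38 and 12.52 in stimulated Nos2-/- and 12.06, 11.97 and 12.07 in untreated Nos2-/-, against 12.56, 12.54 and 12.55 in stimulated WT and 11.94, 11.97 and 12.01 in untreated WT. It rose by 0.41 in Nos2-/- and by 0.58 in WT, each with a standard error of 0.06, and the second probe set gave 0.45 in Nos2-/- and 0.61 in WT.

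Between the stimulated genotypes, 3 of the 5 neutrophil-directed genes were lower in Nos2-/- BMDMs, namely Cxcl3, Cxcl5 and Ppbp, and Cxcl1 and Cxcl2 did not pass the test. All 5 had a log2 fold change below 0, with a median of −0.64, which is the value of Cxcl5, a dim gene. Of the 3 IFNγ-induced genes, 0 were called by limma, with 0 at an unadjusted p under 0.05, and their median was 0.16. The model without moderation of the variance called 0 of all 10 genes in this comparison, the neutrophil-directed ones included. Over all genes 1.91% were called lower, 1.03% were called higher and the median was −0.01. These medians describe the classes, which were not tested against each other. The 8 measured neutrophil markers summed to 7577 to 7887 on the linear scale in stimulated Nos2-/- and 5905 to 6127 in stimulated WT, most of it S100a8. Of the 8, 3 were dimmer in every group than the median of the single-gene probe sets. The 4 measured dendritic cell markers summed to 380 to 481 in stimulated Nos2-/- and 290 to 383 in stimulated WT. The ranges of the dendritic cell sums overlapped between the genotypes. Of the 8 neutrophil and 4 dendritic cell markers, 0 were called between the stimulated genotypes, and each list had log2 fold changes on both sides of 0. S100a8 itself rose on stimulation, by 3.57 in Nos2-/- and 3.39 in WT. The part of such cells in the result was not tested.

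**Figure D3:**
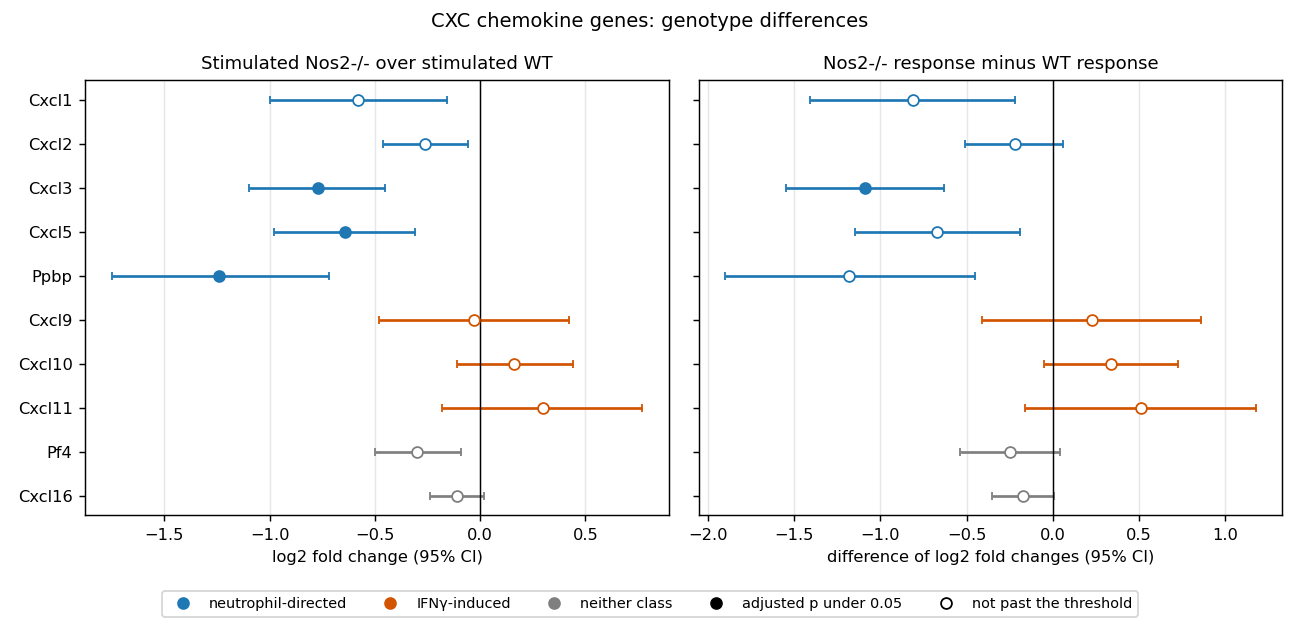
Left, log2 fold change of stimulated Nos2-/- over stimulated WT BMDMs. Right, the Nos2-/- response minus the WT response on the log2 scale. Each gene is a row, bars are 95% confidence intervals from limma, colours give the class and filled points passed an adjusted p of 0.05. All 5 neutrophil-directed genes lie left of 0 in both panels, with Cxcl3, Cxcl5 and Ppbp filled on the left and Cxcl3 alone on the right.

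Of the 10 genes Ppbp differed most, with −1.24 on the log2 scale (95% CI −1.75 to −0.72, adjusted p = 0.0105 from limma). Its mean signal was 4.5 in stimulated Nos2-/-, below the array medians, and 5.74 in stimulated WT. The filter on dim genes removed Ppbp. The 3 stimulated Nos2-/- arrays, at 4.01 to 5.05, lay below the 3 stimulated WT arrays, at 5.20 to 6.12, but the closest arrays of the genotypes were only narrowly apart. Of 16 alternatives, 14 called it, with adjusted p from 0.0018 to 0.0871, and it was not called in a model of the 6 stimulated arrays alone (adjusted p = 0.0764).

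Cxcl3 was lower by 0.77 on the log2 scale, at 11.03 ± 0.32 (SD, n = 3) in stimulated Nos2-/- and 11.81 ± 0.12 (SD, n = 3) in stimulated WT (log2 fold change −0.77, 95% CI −1.10 to −0.45, adjusted p = 0.0122 from limma). This is a level in Nos2-/- of 0.585 times that in WT. Of 17 alternatives, 15 called it, with adjusted p from 0.0018 to 0.0829. Without stimulated WT replicate 2 it was at −0.70 and not called (adjusted p = 0.0586).

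Cxcl5 was at −0.64 (adjusted p = 0.0423 from limma), with overlapping groups and signals low on the arrays. It was called under 8 of 16 alternatives, with adjusted p from 0.0058 to 0.1840. These alternatives are not independent checks. Cxcl5, like Ppbp and Cxcl3, has 1 probe set, so the alternatives of probe set choice used the same signal. The thresholds of the methods were applied to the main fit at a looser false discovery rate. It was not called without stimulated Nos2-/- replicate 2 (−0.53, adjusted p = 0.1279) or 3 (−0.57, adjusted p = 0.1649), or without stimulated WT replicate 2 (−0.53, adjusted p = 0.1603) or 3 (−0.58, adjusted p = 0.1278).

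Cxcl1 and Cxcl2 did not pass the test over all genes. For Cxcl1 the log2 fold change was −0.58 (95% CI −1.0 to −0.16) at an adjusted p = 0.1556 from limma, and for Cxcl2 it was −0.26 (95% CI −0.46 to −0.06) at an adjusted p = 0.1815. Neither was called under any of 17 alternatives. The probe sets of Cxcl1 differed, however. When all probe sets were tested, the _s_at probe set of Cxcl1, at 9.62, 9.93 and 9.39 in stimulated Nos2-/- and 10.14, 10.21 and 10.48 in stimulated WT, was called lower (−0.63, adjusted p = 0.0199 from limma), whereas the brightest gave −0.58 (adjusted p = 0.1603) and the _x_at probe set −0.16 (adjusted p = 0.6168). The suffixes _s_at and _x_at mark probe sets that can match related transcripts, and Cxcl1, Cxcl2 and Cxcl3 are close paralogs, so signal shared among them cannot be told apart.

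None of the 3 IFNγ-induced genes passed the test between the stimulated genotypes. Cxcl9 differed by −0.03 (95% CI −0.48 to 0.42), Cxcl10 by 0.16 (95% CI −0.11 to 0.44) and Cxcl11 by 0.30 (95% CI −0.18 to 0.77). The arrays of the genotypes overlapped for all 3. The second probe set of Cxcl11 gave 0.42 (standard error 0.15, adjusted p = 0.1977 from limma) and that of Cxcl9 gave −0.02.

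Pf4 and Cxcl16, which belong to neither class, were at −0.30 (95% CI −0.50 to −0.09, adjusted p = 0.1341 from limma) and −0.11 (95% CI −0.24 to 0.02, adjusted p = 0.4569). The arrays of Cxcl16 did not overlap between the genotypes even though the difference was small, as its SD was 0.07 in Nos2-/- and 0.01 in WT. In all, 5 of the 10 genes had all stimulated Nos2-/- arrays below all stimulated WT arrays, Cxcl1, Cxcl2, Cxcl3, Ppbp and Cxcl16, against 8.89% of all genes.

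The classes were also averaged on each stimulated array. These averages use the same signals as the comparisons above, so they describe the arrays and add no further support. The neutrophil-directed average includes Cxcl5, which was dim, and Ppbp, which fell on stimulation. Averaged over the 5 neutrophil-directed genes, the deviation from the stimulated WT mean was −0.59, −0.52 and −0.99 in stimulated Nos2-/- replicates 1, 2 and 3, and −0.11, −0.04 and 0.15 in stimulated WT replicates 1, 2 and 3. Over the 3 IFNγ-induced genes it was 0.06, −0.08 and 0.45 in stimulated Nos2-/- and −0.06, 0.02 and 0.04 in stimulated WT. Stimulated Nos2-/- replicate 3 was the lowest of its group for 4 of the 5 neutrophil-directed genes and the highest for 3 of the 3 IFNγ-induced genes. Without it Ppbp was at −0.99 (adjusted p = 0.0489 from limma) and Cxcl3 at −0.59 (adjusted p = 0.0413), both still called, and Cxcl11 was at 0.00.

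**Figure D4:**
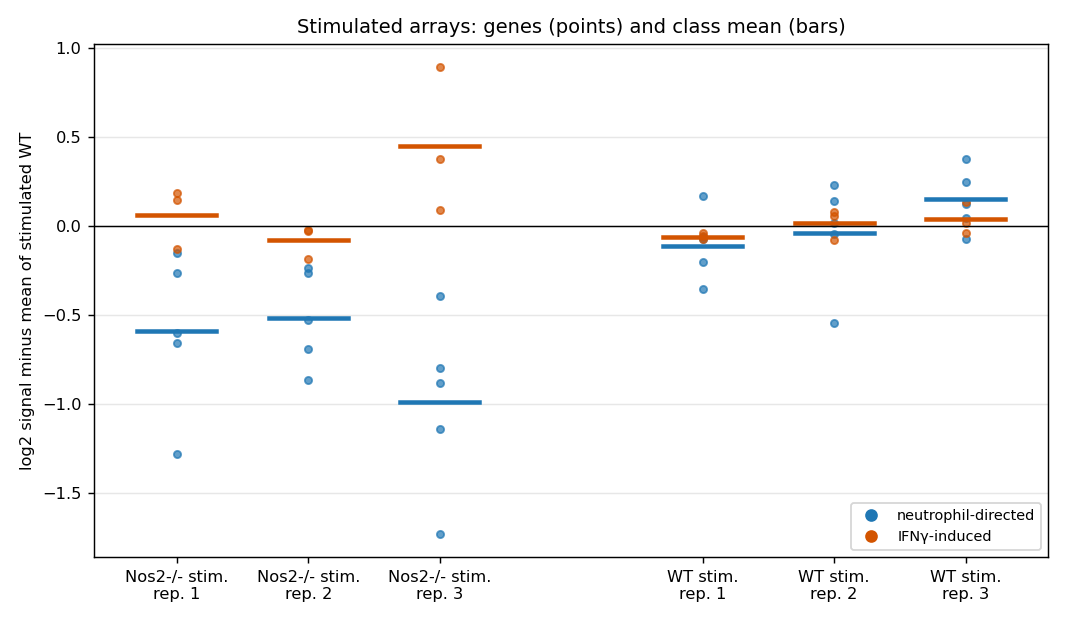
Log2 signal minus the mean of stimulated WT (y axis) for the 8 genes of the 2 classes (points) on the 6 stimulated arrays (x axis), with the mean of each class as a bar. The bars of the neutrophil-directed class (blue) lie between −0.99 and −0.52 on the Nos2-/- arrays and between −0.11 and 0.15 on the WT arrays.

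In untreated cells no difference between the genotypes was called at any of the 10 genes. The log2 fold changes of untreated Nos2-/- over untreated WT ran from −0.25 for Cxcl9 to 0.32 for Cxcl3. By limma 0 were called, 0 had an unadjusted p under 0.05 and 0 had groups that did not overlap, where 0.011% of all genes were called and 12.6% had groups that did not overlap.

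Whether stimulation moved a gene by another amount in Nos2-/- than in WT was tested as an interaction, which shares the 6 stimulated arrays with the comparison above. Of the 10 genes, 1 was called, Cxcl3, whose response was smaller in Nos2-/- by 1.09 on the log2 scale (difference −1.09, 95% CI −1.55 to −0.63, adjusted p = 0.0306 from limma), where 0.676% of all genes were called lower and 0.302% higher. Part of this value came from the untreated arrays, in which Cxcl3 was at 5.81 ± 0.15 in Nos2-/- and 5.49 ± 0.25 in WT (SD, n = 3 each). It was held under 14 of 22 alternatives, with adjusted p from 0.0043 to 0.1507. It was lost without untreated Nos2-/- replicate 2 (−1.06, adjusted p = 0.0826) or 3 (−1.03, adjusted p = 0.0703), without stimulated WT replicate 1 (−1.13, adjusted p = 0.0534), 2 (−1.02, adjusted p = 0.0811) or 3 (−1.12, adjusted p = 0.0509), and without untreated WT replicate 2 (−1.11, adjusted p = 0.0674) or 3 (−0.96, adjusted p = 0.0773).

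For the other neutrophil-directed genes the difference between the responses was −1.18 for Ppbp, −0.81 for Cxcl1, −0.67 for Cxcl5 and −0.22 for Cxcl2, and none of these 4 was called. Ppbp had an adjusted p = 0.1638 from limma and was called without stimulated Nos2-/- replicate 2 (−1.45, adjusted p = 0.0358) and without stimulated WT replicate 2 (−1.45, adjusted p = 0.0417), with a range of 0.0358 to 0.3663 over its alternatives. The IFNγ-induced genes were all above 0, at 0.23 for Cxcl9, 0.34 for Cxcl10 and 0.51 for Cxcl11, and 0 were called. The median difference was −0.81 for the neutrophil-directed genes and 0.34 for the IFNγ-induced genes, against −0.01 over all genes.

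The genes whose 4 group means lay nearest to those of a chemokine, each taken relative to its own average, were found as a description. For Cxcl10 they were Batf2, Mlkl and Jak2, with root mean square differences of 0.0136, 0.0368 and 0.0533 on the log2 scale over the 4 groups. For Cxcl3 they were Slpi, Cst7 and Arg1, at 0.210, 0.257 and 0.285. Between the stimulated genotypes Slpi was at −0.35, Cst7 at −0.08 and Arg1, which encodes the arginase that competes with NOS2 for arginine, at −0.99. For Ppbp they were Cat, which encodes catalase, Rhob and Rassf8, at 0.0934, 0.0965 and 0.114. For Cxcl5 they were Rnf183, Asf1a and Txnrd1, at 0.0317, 0.0561 and 0.0653. Cxcl9 had only distant neighbours, Saa3 at 0.282, Il6 at 0.331 and Serpinb2 at 0.472.

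Among the receptors of the family, Cxcr4, the receptor of Cxcl12, was the only 1 of 8 measured that passed the test between the stimulated genotypes. Its mean log2 signal was 4.51 in stimulated Nos2-/- and 6.07 in stimulated WT, against 10.82 in untreated Nos2-/- and 10.88 in untreated WT, a log2 fold change between the stimulated genotypes of −1.56 (standard error 0.15, adjusted p = 4.4e-05 from limma). Cxcr2, the receptor of the neutrophil-directed chemokines, had means of 4.07 in stimulated Nos2-/- and 4.09 in stimulated WT, and Cxcr3, that of the IFNγ-induced ones, 6.22 in both. These 2 were picked as the receptors of the 2 classes and not by the rule for naming genes. Of 5 other CXC ligands, 0 were called between the stimulated genotypes, with 0 at an unadjusted p under 0.05 and log2 fold changes of −0.12 to −0.03. Cxcl14, named after its values were seen, fell on stimulation, with log2 fold changes of −2.60 in Nos2-/- and −2.45 in WT.

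Genes of the pathways that induce the 2 classes, and of chemokine mRNA decay and cleavage, were counted between the stimulated genotypes beside the 1.03% of all genes called higher and 1.91% called lower. Of 9 measured genes of IFNγ signaling, 1 was higher in Nos2-/-, the receptor chain Ifngr1 (0.25, standard error 0.06), and 0 were lower. The receptor chain Ifngr2 was at 0.22, the kinase Jak2 at 0.20 and the inhibitor Socs1 at 0.38 without passing the test. Of 10 genes of LPS signaling, the adaptor Tirap alone was higher (0.28, standard error 0.07) and 0 were lower. Myd88 was at 0.19, Ly96 at 0.16 and Irak1, on the other side of 0, at −0.19 without passing. Of 9 regulators of chemokine mRNA decay, 1 was lower, Zfp36l2, which encodes a protein that binds AU-rich elements (−0.62, standard error 0.07, adjusted p = 0.0002 from limma), and 1 was higher, Traf3ip2, which encodes the IL-17 receptor adaptor Act1 (0.43, standard error 0.07). The nuclease gene Zc3h12a was at 0.33 (adjusted p = 0.0764) and Arid5a, which encodes an mRNA-stabilising protein, at 0.38 (adjusted p = 0.1943). Of 10 proteases known to cut CXC chemokines, 0 passed the test, with Dpp4 at 0.24 as the only 1 at an unadjusted p under 0.05.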

How the data were processed

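Affymetrix arrays measured the RNA of 12 BMDM cultures. The submitters' processing notes name Partek and RMA (versions not given in the sources used here), and the authors deposited log2 RMA values of 45101 probe sets. Leaving out 64 controls, GEO's platform annotation named 1 gene for 34945 probe sets, several for 932 and none for 9160. Dim probe sets were kept.

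The 4 group means and their contrasts were fitted by lmFit and eBayes of limma 3.58.1 (R 4.3.3, two-sided), a procedure first tested on simulated data. Thresholds named in the methods (1.5-fold, false discovery rate under 0.5) were an alternative, as were other scalings, filters, probe set choices and leaving out each array. Alternatives share most of their data, and for a gene with 1 probe set the probe set choices use the same signal. Counts of alternatives that call a gene are therefore not counts of independent checks. Precision is limited by the number of arrays. Members and lists were chosen with earlier results of these data known. Named genes are all members, at most 4 of each list by the lowest p between the stimulated genotypes, and the 3 genes nearest to a member. Promoters and positions are those of RefSeq (GRCm38.p6), read with Python 3.11.15. Cxcr1, Irak4 and Ticam2 are not analysed here.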

Additional observations from a re-analysis of the deposited data

Results flagged for a closer look

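The responses of the genotypes differed by the test of the difference itself for 1 of the 10 genes, Cxcl3, whose rise on stimulation was smaller in Nos2-/- than in WT (difference −1.09 on the log2 scale, adjusted p = 0.0306 from limma, called under 14 of 22 alternatives). Groups of 3 arrays were not searched for single outlying arrays.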

How the results depend on the processing

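With 3 arrays per group, calls near the threshold moved with the setting. Between the stimulated genotypes, the number of the 10 genes called lower in Nos2-/-, 3, became 1 in a model of the arrays compared, 0 without moderation of the variance and 1 when dim genes were left out, which removes Cxcl5 and Ppbp, and was 1 to 3 when each array was left out. The number that fell in WT, 2, was 1 without moderation, with quantile normalization, without dim genes and with the replicate block, and 1 to 2 without each array. The number that fell in Nos2-/-, 2, was 1 without dim genes, and the number that rose there, 8, was 7 to 8 without each array. For the difference between the responses the number lower, 1, was 0 without moderation, 4 at the thresholds of the methods and 0 to 2 without each array. The number that rose in WT, 8, was 7 under 2 alternatives, and that in Nos2-/- was 6 at the thresholds of the methods. No gene was called between the untreated genotypes, or as higher in Nos2-/- between the stimulated genotypes or between the responses, under any alternative run.

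The sign of Cxcl9 between the stimulated genotypes, −0.03, turned to 0.01 without stimulated WT replicate 2 and 0.02 without stimulated Nos2-/- replicate 1, in a range of −0.08 to 0.02 without each array. Its difference between the responses, 0.23, turned to −0.06 without untreated Nos2-/- replicate 1, in a range of −0.06 to 0.38. None of these was called. Pf4 was called lower between the stimulated genotypes with an intensity trend (−0.30, adjusted p = 0.0367). The replicate numbers did not pair the arrays: same-numbered arrays had a median correlation of deviations of 0.033 and 5 of 12 arrays correlated best with their own number. With the replicate block Cxcl5 between the stimulated genotypes (−0.64, adjusted p = 0.0795) and Ppbp in WT (−0.62, adjusted p = 0.0616) were not called, and no other call of the 10 chemokine genes changed. The other genes named were not run under the alternatives. Centring or quantile normalization moved the median of all genes by at most 0.057. The causes of these shifts were not tested.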
